A study of Homo sapiens with 4 samples.

Results

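The genes described here encode the mitochondrial protein import machinery, 37 named genes out of 20037 protein-coding genes on chromosomes 1 to 22, X and Y. They were listed by function, and all 37 were found in the RefSeq gene table. Binding of ERRα, an orphan nuclear receptor encoded by ESRRA, was measured by chromatin immunoprecipitation with sequencing (ChIP-seq). The cells were of the established human line MDA-MB-231, from a triple-negative breast cancer. The groups were 2 ERRα ChIP replicates (antibody GTX108166, 5 µg on chromatin of 2500000 cells fixed with 1% formaldehyde) and 2 inputs without antibody. Both groups were the same cells, with no treatment named in the labels, and no sample with reduced ERRα is used here. The submitters describe 2 cultures as the source of the replicates. Peak lists hold no expression values, so the cell line label could not be checked against marker genes.

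Nearly all mitochondrial proteins are made in the cytosol and must be imported. The TOM complex of the outer membrane is the common entry gate, and the SAM complex inserts barrel-shaped proteins into that membrane. In the intermembrane space, small TIM chaperones escort hydrophobic proteins, and a disulfide relay traps others by oxidising them. The TIM23 and TIM22 complexes of the inner membrane take over from there, a motor on the matrix side pulls the chain in, and peptidases remove the targeting sequence. ERRα is known for binding genes of mitochondrial energy metabolism through the element TNAAGGTCA (N is any base).

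A peak was called reproducible when it passed an irreproducible discovery rate (IDR) of 0.05 between the replicates, which left 5070 peaks. Its height is the authors' fold enrichment of ChIP signal over the local input background. The inputs enter through this fold and through the authors' peak calls, which were made against them. A reproducible summit lay inside the gene or within 10 kb for 15 of the 37 import genes (40.5%, exact Clopper-Pearson 95% interval 24.8 to 57.9), against 18.3% of all protein-coding genes. For 13 of them (35.1%, interval 20.2 to 52.5) a summit lay within 1 kb of an end of the gene, against 4.49% of all protein-coding genes. These 13 are called bound below. Intervals cover the number of genes only, and the list was drawn up with earlier results of these data known, so no test was run over it.

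The parts of the machinery differed in their counts. Of 8 genes of the intermembrane space, 5 were bound (62.5%, interval 24.5 to 91.5). Of 12 outer membrane genes 4 were bound (33.3%, 9.92 to 65.1), and of 13 genes of the inner membrane and its motor 4 were (30.8%, 9.09 to 61.4). None of the 4 processing peptidase genes was bound (interval up to 60.2%). A reproducible summit inside the gene or within 10 kb was found for 5 of 8 intermembrane space and 6 of 12 outer membrane genes (50%). For the inner membrane and its motor this was 4 of 13, and for processing 0 of 4, against 18.3% of all protein-coding genes. All these intervals overlap, and the differences between parts were not tested. When summits within 1 kb of another protein-coding gene's end were set aside, 8 of 37 genes remained bound (21.6%, 9.83 to 38.2), against 3.12% of all protein-coding genes. That step left 1 of the 5 bound intermembrane space genes, 3 of the 4 in the outer membrane and all 4 in the inner membrane.

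**Figure D1:**
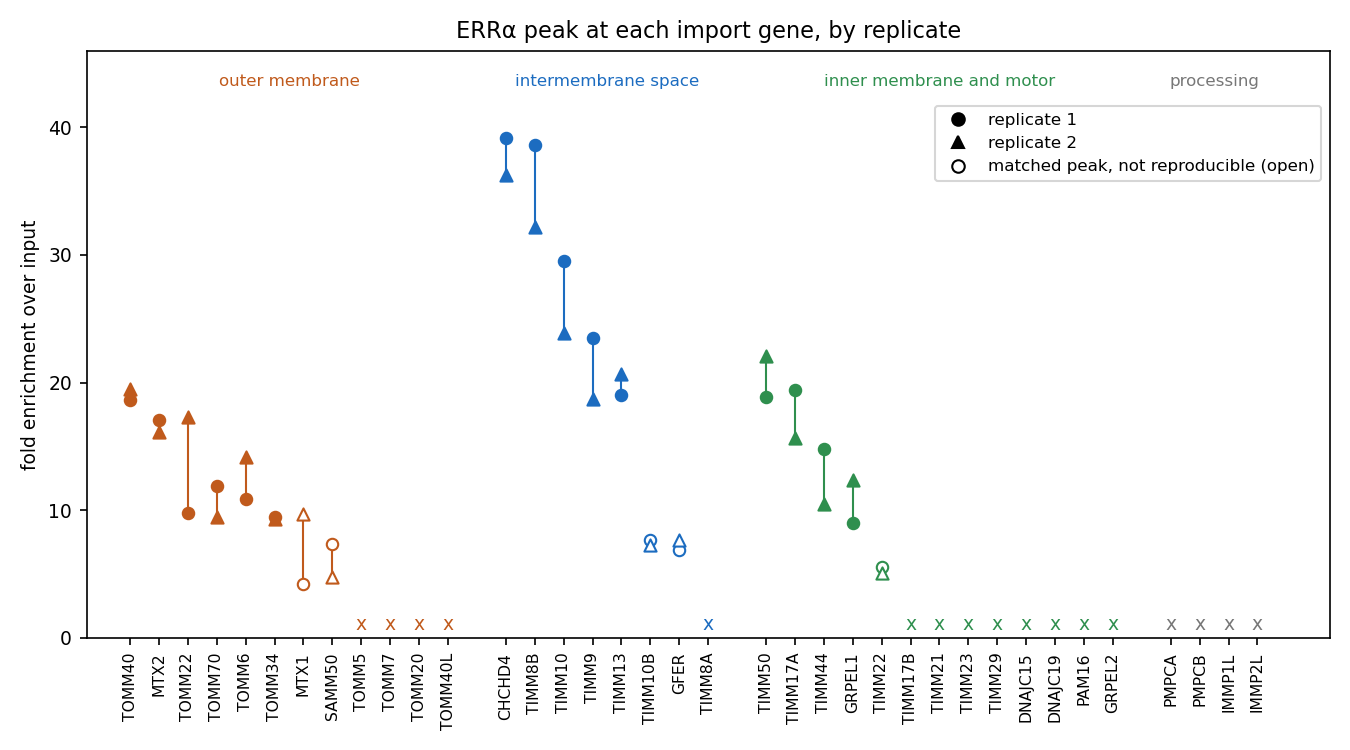
Fold enrichment over input (linear axis) of the ERRα peak at each of the 37 import genes, by part, with replicate 1 as circles and replicate 2 as triangles. Filled symbols are reproducible peaks, at a gene end where there is one, open symbols are matched peaks that failed the IDR limit, and x marks genes without a matched peak within 10 kb. The 5 bound intermembrane space genes have mean folds of 19.9 to 37.8, and all 4 peptidase genes carry an x.

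Promoter sequence was taken from RefSeq (GRCh38.p14, 250 bases before to 50 after a listed start), which matched 34 of the 37 genes. In 4 bound genes the ERRα summit fell within that window, and the upstream part of these promoters is printed to show the sequence at or beside a summit. Each runs 5′ to 3′ in the direction of its gene and ends at the first transcribed base. Capitals mark a partial match to the ERRα element where one was found: AAGGTCA in TIMM44 (chr19:7943666-7943816, minus strand), AGGTCA read on the opposite strand in TOMM70 (chr3:100401089-100401239, minus strand), and TCAAGGTC read on the opposite strand in TIMM13 (chr19:2427586-2427736, minus strand). In TIMM50 (chr19:39480658-39480838, plus strand) capitals mark the 5 bases on each side of the summit and the summit itself.
TIMM44: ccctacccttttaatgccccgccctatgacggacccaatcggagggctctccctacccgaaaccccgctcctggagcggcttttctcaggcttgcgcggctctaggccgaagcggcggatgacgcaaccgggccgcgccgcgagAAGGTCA
TOMM70: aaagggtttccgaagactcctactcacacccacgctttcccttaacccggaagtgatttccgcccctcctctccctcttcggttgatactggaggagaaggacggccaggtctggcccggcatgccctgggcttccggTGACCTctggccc
TIMM13: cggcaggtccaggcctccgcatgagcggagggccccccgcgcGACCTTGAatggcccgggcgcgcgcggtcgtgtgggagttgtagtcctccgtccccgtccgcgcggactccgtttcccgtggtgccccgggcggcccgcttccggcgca
TIMM50: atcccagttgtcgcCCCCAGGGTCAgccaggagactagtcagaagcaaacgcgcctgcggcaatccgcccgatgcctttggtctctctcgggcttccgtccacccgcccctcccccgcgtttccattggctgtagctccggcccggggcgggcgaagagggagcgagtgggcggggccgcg

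The AAGGTCA of TIMM44 occupied bases -6 to 0 from the start (0 is the first transcribed base), and the ERRα summit lay at -19. In TOMM70 the AGGTCA match lay at -12 to -7 and the summit at 17, past the end of the printed stretch. The TIMM13 match lay at -108 to -101 and the summit at -127. The TIMM50 summit lay at -161, and none of these 3 words was found within the bases printed for it. TCAAGGTC was added to the search after the TIMM13 sequence had been seen. These are matches of letters, not shown binding sites.

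The full element TNAAGGTCA, searched on both strands, was in the promoter window of 0 of 34 import genes, against 0.896% of 15842 protein-coding genes and 2.80% of the 751 bound ones with a listed start. Its core AAGGTCA was in 2 of 34 (5.88%), TIMM44 and the unbound TIMM23, against 4.25% of all and 9.59% of bound genes. TCAAGGTCA, the form of the full element with C in place of N, was in 0 of 34, against 0.335% of all and 1.20% of bound genes. The shorter AGGTCA, which lies inside each of these, was in 9 of 34 (26.5%), against 15.2% of all and 21.6% of bound genes. The 9 were made up of 3 of 11 bound and 6 of 23 unbound import genes. TCAAGGTC was in 1 of 34 (2.94%), against 0.871% of all and 2.40% of bound genes. Most bound import genes had their summit outside this window, so the search did not reach the sequence under those summits.

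Words of other factors known at mitochondrial promoters were searched in the same windows. GCGCATGC, the core of the motif of NRF1, was in 5 of 34 import genes (14.7%), against 4.89% of all and 6.26% of bound genes. These were the bound CHCHD4 and TIMM9 and the unbound TOMM7, TIMM10B and PAM16. CCGGAAGT, read by ETS family factors such as GABP, was in 8 of 34 (23.5%), against 6.97% of all and 10.7% of bound genes. The 8 included the bound TOMM70, MTX2 and TIMM10. The remaining matches were in TOMM6, TOMM20, TIMM10B, TIMM29 and GRPEL2, which were not bound. Neither word overlaps the ERRα element. The median GC content of the windows was 65.3% in bound import genes and 63% in the others. It was also 65.3% in the 751 bound protein-coding genes, and 62.7% in all protein-coding genes. The part of GC content in the counts of matches or summits was not tested.

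In the intermembrane space, the strongest summit at a gene end was that of CHCHD4, the oxidoreductase at the centre of the disulfide relay. Its fold was 39.2 in replicate 1 and 36.3 in replicate 2 (mean 37.8 ± 2.06, SD, n = 2), which ranked 377th of the 5070 reproducible peaks. The peak spanned chromosome 3 from 14124098 to 14124996 (hg38), with its summit inside the gene, 341 bp downstream of the start. It was also 523 bp upstream of the start of TMEM43, the neighbour on the other strand. GFER, the sulfhydryl oxidase that recycles CHCHD4, had no reproducible summit within 10 kb. Its nearest matched peak lay 9349 bp outside the gene with folds of 6.85 and 7.69, near an end of ZNF598. A weaker peak 2799 bp outside GFER was in the list of replicate 2 alone (fold 5.94).

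Small TIM proteins work as hexamers of alternating partners, TIMM9 with TIMM10 and TIMM8A or TIMM8B with TIMM13. Both genes of the first pair were bound. TIMM10 reached folds of 29.5 and 23.9 in replicates 1 and 2 (26.7 ± 3.99, SD, n = 2), with the summit 352 bp downstream of its start (chromosome 11, 57529984 to 57530898). It was the bound intermembrane space gene whose summit was near no other protein-coding gene's end. TIMM9 reached 23.5 and 18.7 (21.1 ± 3.37, SD, n = 2), with the summit 771 bp downstream of its start and 640 bp upstream of that of KIAA0586 (chromosome 14, 58426304 to 58427780).

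TIMM13 reached folds of 19.03 and 20.7 (19.9 ± 1.17, SD, n = 2). Its summit lay 127 bp upstream of its start, and also within 1 kb of an end of LMNB2, whose own start was 29246 bp away (chromosome 19, 2427408 to 2428075). The matched peak at TIMM8B had folds of 38.6 and 32.2 (35.4 ± 4.49, SD, n = 2) on chromosome 11 from 112085889 to 112087304. The replicate 1 value is a sum over 2 peaks of 31.6 and 6.99, and with the higher peak alone the mean is 31.9 ± 0.454 (SD, n = 2). The summit lay 139 bp outside TIMM8B and 22 bp downstream of the start of SDHD, a complex II subunit gene. Its paralog TIMM8A, on chromosome X, had no peak within 10 kb in either replicate's list, and its nearest reproducible summit was 351 kb away.

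TIMM10B, a small TIM protein attached to the TIM22 complex, had 2 matched peaks that failed the IDR limit. The one 64 bp downstream of its start had folds of 4.24 and 6.85, and the replicate summits were 218 bp apart. This summit was also within 1 kb of an end of ARFIP2. The other, 1582 bp outside the gene, had folds of 7.69 and 7.26 and an IDR score of 537, just under the limit of 540. With all matched peaks, TIMM10B counts as bound and the intermembrane space count becomes 6 of 8. In that setting 17 of 37 import genes had a summit at an end (45.9%), and the share of all protein-coding genes rose from 4.49% to 8.85%.

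In the inner membrane, TIMM50, the TIM23 receptor that takes over proteins from TOM, had the strongest summit. Its folds were 18.9 and 22.05 (20.4 ± 2.26, SD, n = 2) on chromosome 19 from 39480356 to 39481049. TIMM17A, a core subunit of TIM23, reached 19.4 and 15.7 (17.6 ± 2.61, SD, n = 2), with the summit 363 bp downstream of its start (chromosome 1, 201955239 to 201956251). TIMM17B, its paralog, had no peak within 10 kb in either list, and its nearest reproducible summit was 1914 kb away. TIMM23, the other core subunit, also had none, and its nearest was 27.0 kb away. TIMM23 has a near-identical copy, TIMM23B, where reads cannot always be placed, and this copy had no summit at an end in either list. TIMM21, a further TIM23 subunit, was 4426 kb from a reproducible summit, the farthest of the 37 genes.

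In the import motor, TIMM44, which anchors the motor to the channel, had folds of 14.8 and 10.5 (12.7 ± 3.08, SD, n = 2) on chromosome 19 from 7943397 to 7944037. GRPEL1, the nucleotide exchange factor of the motor chaperone, had 9.02 and 12.4 (10.7 ± 2.42, SD, n = 2), with the summit inside the gene 460 bp from its nearer end (chromosome 4, 7067272 to 7068030). The paralog GRPEL2 had no peak within 10 kb. The same held for PAM16, DNAJC15 and DNAJC19, which regulate the chaperone through J or J-like domains. At an IDR of 0.01, GRPEL1 was no longer bound and the count of bound import genes was 12 (32.4%, against 3.63% of all protein-coding genes). Of the TIM22 complex, which inserts carrier proteins, TIMM22 had a matched peak 149 bp downstream of its start that failed IDR (folds 5.58 and 5.11, replicate summits 396 bp apart). TIMM29, a further subunit, had a peak 132 bp upstream of its start in replicate 1 alone (fold 5.71).

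In the outer membrane, TOMM40, the pore of the TOM complex, had 3 reproducible summits in reach. The strongest, 4894 bp upstream of its start, had folds of 32.1 and 32.4 (32.2 ± 0.176, SD, n = 2). The summit 661 bp downstream of the start had 18.6 and 19.5 (19.1 ± 0.585, SD, n = 2), in a peak of 1888 bp (chromosome 19, 44890401 to 44892288). It was the summit by which the gene counts as bound. The last lay 1196 bp beyond its far end with 11.1 and 10.1. The ratio of replicate 2 to replicate 1 was between 0.911 and 1.04 for the 3 summits. TOMM40L, the paralog, had 1 peak 5967 bp upstream of its start in replicate 1 alone (fold 4.74).

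Of the TOM receptors, TOMM22 had folds of 9.76 and 17.3 (13.5 ± 5.34, SD, n = 2), with the summit 513 bp downstream of its start (chromosome 22, 38681688 to 38682877). That ratio of replicate 2 to replicate 1, 1.77, was the highest among bound import genes and above the 90th percentile of all reproducible peaks, which was 1.23. TOMM70, the receptor for carrier proteins, had 11.9 and 9.46 (10.7 ± 1.73, SD, n = 2), and its summit lay 467 bp upstream of the start of LNP1. TOMM20, the receptor for targeting sequences, had no peak within 10 kb and was 29.6 kb from a reproducible summit.

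Of the small TOM subunits, TOMM6 had a summit 4391 bp upstream of its start, with folds of 10.9 and 14.2 (12.6 ± 2.38, SD, n = 2), and is not counted as bound. TOMM5 and TOMM7 had no peak in reach. TOMM34, mainly a cytosolic cochaperone that is listed here with the outer membrane, had a summit 5462 bp upstream of its start, with folds of 9.49 and 9.28 (9.38 ± 0.148, SD, n = 2). That summit was 653 bp upstream of the start of STK4, the neighbouring gene of a protein kinase.

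In the SAM complex, MTX2 had folds of 17.1 and 16.1 (16.6 ± 0.650, SD, n = 2), with the summit 244 bp downstream of its start (chromosome 2, 176269250 to 176270154). Further inside the gene, 2 matched peaks with mean folds of 5.10 and 4.90 failed IDR. MTX1, its partner, had a matched peak 596 bp downstream of its nearer listed start that failed IDR, with folds of 4.19 and 9.67. This summit was also 117 bp upstream of the start of THBS3. SAMM50, the barrel protein of the complex, had one 3 bp from its start that failed too, with folds of 7.36 and 4.78.

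The 4 listed processing peptidase genes had no ERRα peak within 10 kb in either replicate's list. PMPCA and PMPCB form the matrix peptidase that removes most targeting sequences, and were 156 and 663 kb from a reproducible summit. IMMP1L and IMMP2L, the catalytic subunits of the inner membrane peptidase, were 430 and 511 kb away. IMMP2L spans 900 kb, against a median of 24.1 kb for protein-coding genes, and held no peak in either list. MIPEP, a matrix peptidase gene that is not among the 37 but in the comparison list of other import genes, differed from them. It is named here after its values had been looked at. It had a reproducible summit 20.4 kb inside the gene, with folds of 41.01 and 39.4 (40.2 ± 1.15, SD, n = 2), and a matched peak 418 bp from an end that failed IDR (6.52 and 5.19). XPNPEP3, another peptidase gene in the comparison list, had no summit inside the gene or within 10 kb in either replicate's list. A list of called peaks shows no signal below the authors' limit, so weaker binding at these genes was not measured.

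In all, 15 import genes had no peak within 10 kb in either list, at 17.9 to 4426 kb from a reproducible summit (median 377). The nearest of them was DNAJC15. A further 5 had matched peaks that failed IDR (GFER, MTX1, SAMM50, TIMM10B and TIMM22) and 2 had a peak in replicate 1 alone (TIMM29 and TOMM40L). In the list of replicate 1, 18 of 37 had a summit at an end (48.6%, against 12.2% of all protein-coding genes), and 22 had one in the gene or within 10 kb (59.5%, against 38.9%). In that of replicate 2 these were 17 (45.9%, against 11.0%) and 20 (54.1%, against 35.9%). In both lists the share of import genes was closer to that of all genes with the wider window. Besides the matched peaks, replicate 1 alone had a peak 1296 bp outside MTX2 (fold 5.63) and one inside TIMM44, 6144 bp from its nearer end (fold 5.33).

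**Figure D2:**
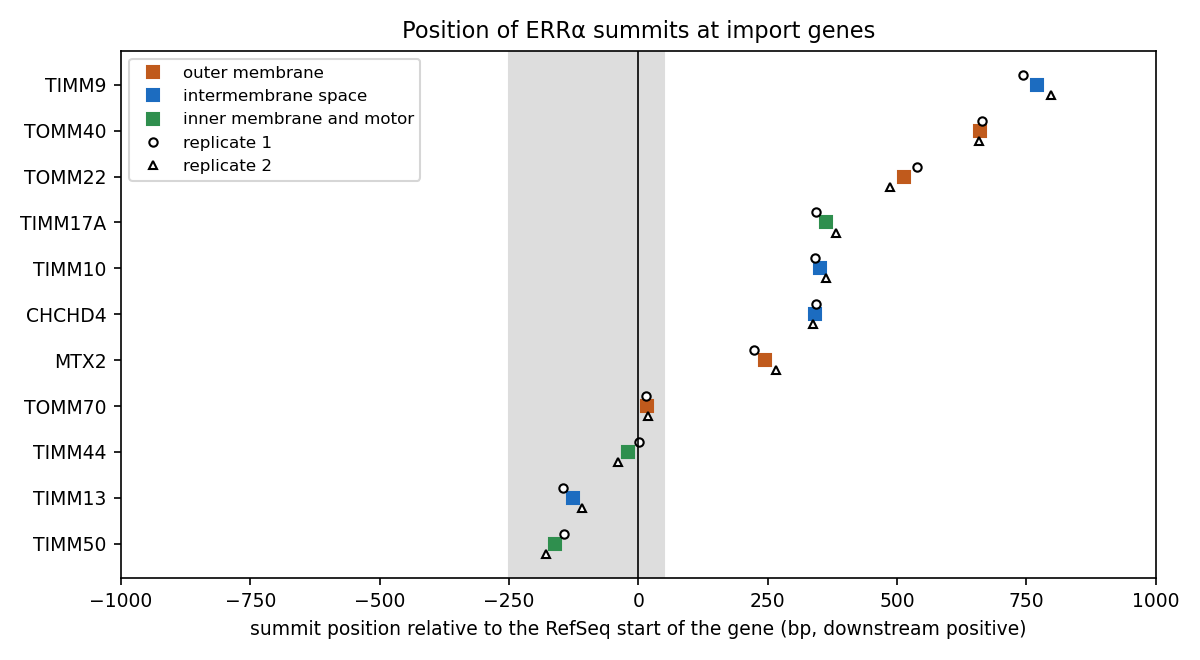
Position of the summit relative to the RefSeq start (bp, downstream positive) for the 11 bound import genes with a listed start. Squares are matched summits coloured by part, circles and triangles the summits of replicates 1 and 2, and the grey band is the promoter window searched for motifs. In 7 genes the summit lies over 200 bp downstream, to the right of the band.

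In most bound import genes with a listed start the summit lay downstream of it. Of these 11, all had the summit within 1 kb of it, 8 downstream (72.7%) and 3 upstream, with a median of 341 bp downstream. In 7 of the 11 (63.6%) it was more than 200 bp downstream, namely MTX2, CHCHD4, TIMM10, TIMM17A, TOMM22, TOMM40 and TIMM9. Among the 715 protein-coding genes with a summit within 1 kb of a listed start (4.51% of 15842), 49.9% had it downstream and 33.4% more than 200 bp downstream. With 11 genes this difference was not tested. The downstream summits of CHCHD4, TIMM9 and TOMM70 also lay upstream of the start of a neighbour (TMEM43, KIAA0586 and LNP1). For these the side depends on the gene to which the summit is given. Replicate summits of the 13 bound genes lay 3 to 118 bp apart (median 37, against 26 for all reproducible peaks). For TIMM44 they fell on both sides of the start, at 1 bp in replicate 1 and at -39 in replicate 2, so its side of the start is not resolved.

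Several bound genes shared their summit. For 5 of the 13 (38.5%) it was also within 1 kb of an end of a neighbouring protein-coding gene, namely TIMM8B, TIMM9, TIMM13, CHCHD4 and TOMM70. Of all 900 bound genes, 30.6% had shared summits only. The peak lists do not tell to which gene of such a pair a summit belongs. The 8 bound genes without such a neighbour were TIMM10, TIMM17A, TIMM44, TIMM50, GRPEL1, TOMM22, TOMM40 and MTX2. Bound import genes had a median length of 12.8 kb and the other 24 of 9.48 kb, both shorter than the median of all protein-coding genes.

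**Figure D3:**
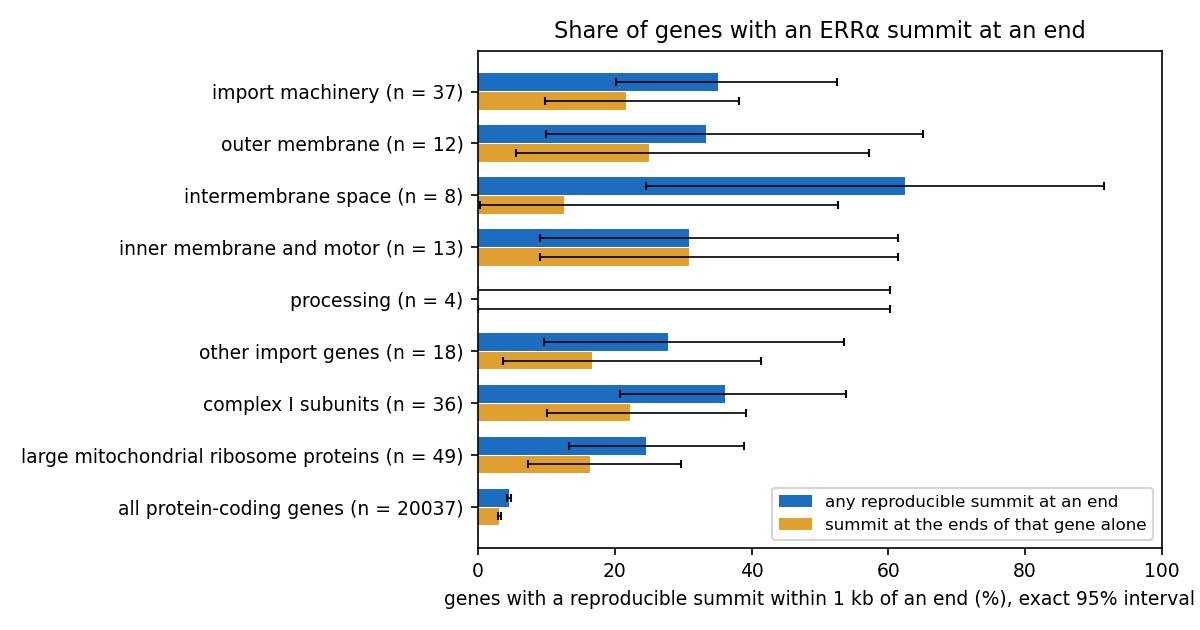
Share of genes (%) with a reproducible ERRα summit within 1 kb of an end, in the import machinery, its 4 parts and comparison groups, with exact 95% intervals as bars. Blue counts any such summit and yellow those near no other protein-coding gene's end. The intermembrane space falls from 62.5% to 12.5% between the 2 counts, and the inner membrane stays at 30.8%.

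The heights of the bound import genes ran from 10.7 to 37.8 in mean fold, with a median of 19.1, against a median of 13.9 over the 900 bound genes. Within the machinery the median was 26.7 in the intermembrane space (5 genes), 15.2 in the inner membrane (4 genes) and 15.1 in the outer membrane (4 genes). The 4 highest, CHCHD4, TIMM8B, TIMM10 and TIMM9, were all intermembrane space genes. Of these, CHCHD4, TIMM8B and TIMM9 share the summit with a neighbouring gene, so the height may not belong to the import gene. Only summits at gene ends are ranked, which leaves out the TOMM40 summit with a mean fold of 32.2. TIMM9, TIMM50 and TIMM13, next to each other in this order with 21.1, 20.4 and 19.9, differed by less than the SD of TIMM9. TOMM70 and GRPEL1 had the lowest mean folds, 10.7 each after rounding, with SDs of 1.73 and 2.42. Folds were higher in replicate 1 for 8 of the 13 and in replicate 2 for 5. TIMM8B was counted for replicate 1 through its summed fold. With the highest single peak it was higher in replicate 2 (31.6 and 32.2).

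**Figure D4:**
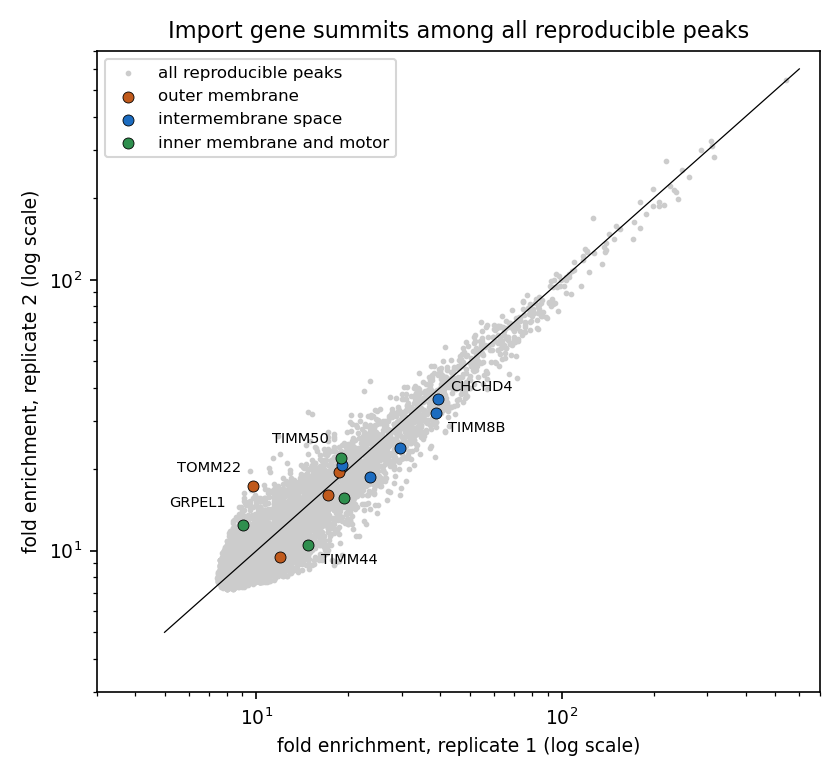
Fold enrichment in replicate 1 against replicate 2 (both axes logarithmic) for all 5070 reproducible peaks in grey and the summits of the 13 bound import genes in colour, with the line of equal folds. Among the 13 import genes, TOMM22 lies farthest above the line (ratio of replicate 2 to replicate 1 of 1.77) and TIMM44 farthest below (0.707).

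Other genes of import, chosen for their role, were set beside the machinery. Of 18 such genes 5 were bound (27.8%, interval 9.69 to 53.5), against 4.49% of all protein-coding genes. These were HSPA9, the motor chaperone that GRPEL1 and TIMM44 work with (47.3 and 53.2 in replicates 1 and 2), the insertase gene MTCH2 (38.8 and 38.7), the folding chaperone genes HSPD1 and HSPE1 at a summit they share (22.5 and 24.7), and OXA1L, which inserts proteins from the matrix side (12.7 and 10.8). So TIMM44, GRPEL1 and HSPA9 of the motor had a summit at an end, and PAM16, DNAJC15, DNAJC19 and GRPEL2 did not. In the list of replicate 1 alone 11 of the 18 had one (61.1%, against 12.2% of all protein-coding genes). In that of replicate 2 alone 10 had one (55.6%, against 11.0%). Complex I subunits had 13 of 36 bound (36.1%, interval 20.8 to 53.8) and large mitochondrial ribosome proteins 12 of 49 (24.5%, 13.3 to 38.9). These counts depend on the peak list, as do the shares of all protein-coding genes given above. In the lists of replicates 1 and 2 alone, complex I had 29 and 25 of 36 with a summit at an end (80.6% and 69.4%), the ribosomal proteins 20 of 49 in each (40.8%), and the import machinery 18 and 17 of 37 (48.6% and 45.9%). Inside the gene or within 10 kb, replicate 1 had a summit for 34 of 36 complex I genes (interval 81.3 to 99.3) and 22 of 37 import genes (42.1 to 75.2). These intervals do not overlap, and the share of all protein-coding genes was 38.9%. In replicate 2 the same counts were 29 of 36 (64.0 to 91.8) and 20 of 37 (36.9 to 70.5). There the intervals overlap, and the share of all protein-coding genes was 35.9%. With reproducible peaks at gene ends the intervals of all these groups overlap that of the import machinery. No difference between the groups was tested.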

How the data were processed

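ERRα ChIP-seq of MDA-MB-231 cells was analysed from peak lists. Per the labels, reads were paired, of 81 bp, and their number, given with no exponent sign, was taken as 29000000 for ERRα and 10000000 for input. Per the submitters' processing notes, the build was hg38 and the tools were MACS2 2.2.6, Bowtie2 2.3.5, Trim Galore 0.6.5, deepTools, SAMtools and Picard, with settings not stated. Each replicate's list holds the authors' fold enrichment (a ratio to local input), deposited −log10 p and q values (smallest −log10 q 1.35 and 1.37) and a deposited score. The list of matched peaks is IDR output, whose deposited score and fold ratios were used as the authors gave them. The columns of each replicate were assigned from the peak names and file labels. Fold values of merged peaks are sums. Both lists were called against the same inputs, and depth per peak is unknown.

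On chromosomes 1 to 22, X and Y the lists held 14072 (replicate 1), 12659 (replicate 2) and 10059 (matched) peaks, and 5070 matched peaks had an IDR score of at least 540. Peaks on other contigs (371, 358 and 272) were left out. Summits were assigned to RefSeq GRCh38.p14 protein-coding genes in Python 3.11.15 (pandas 2.3.3, scipy 1.17.1), and the assignment and motif search were tested on simulated data. Neighbours were sought among protein-coding genes only, so a summit near a non-coding gene was not marked as shared. No test was run over the list. Members and lists were chosen with earlier results of these data known. All 37 members are named, with both replicates' folds where a matched peak was used, and neighbours within 1 kb of a summit are named, except for 1 that is not reported here. Alternatives were other windows, IDR limits, q limits and single replicates.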

Additional observations from a re-analysis of the deposited data

How the results depend on the processing

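Of 64 recomputed counts, 55 stayed within 1.5 times the reported one. In the lists of replicates 1 and 2, 12.2% and 11.0% of all protein-coding genes had a summit within 1 kb of an end. Inside the gene or within 10 kb these shares were 38.9% and 35.9%. Without either replicate, that is in the other's own list, the count of import genes with a summit within 1 kb of an end was 17 to 18, that inside the gene or within 10 kb 20 to 22, that of the inner membrane 5 to 6, those of the intermembrane space and outer membrane 6 each, that of the processing genes 0, and that of the other import genes 10 to 11. Counting summits near no other protein-coding gene's end, chosen after seeing the data, gave 8 import genes and 1 in the intermembrane space, since 4 of its summits are shared. The other import genes, whose alternatives were also added later, came to 9 with all matched peaks and to 9 with replicate 1 peaks that overlap a replicate 2 peak. The count of promoters with TNAAGGTCA, 0, became 2 with AAGGTCA. Words added after seeing the data gave 9 with AGGTCA and 1 with TCAAGGTC. Of all protein-coding genes, 0.896% had TNAAGGTCA in the window, 4.25% AAGGTCA, 15.2% AGGTCA and 0.871% TCAAGGTC. The processing genes stayed at 0 in every setting run, which was fixed in advance because neither replicate's list held a peak within 10 kb of them. Their settings are among the 55 counts that stayed. All 45 alternative folds of single genes moved by less than the SD, which with n = 2 follows by construction for the 30 that use 1 replicate. The rest use the highest overlapping peak, which differs from the reported fold only where peaks were merged. That was so for TIMM8B alone, which moved from 35.4 to 31.9 (SD 4.49), so the other folds were no check. No paired analysis was possible because the results are counts and folds from peaks called against both inputs together, with no test between groups. Depth per peak is unknown and its effect was not tested. The lists hold only called peaks, so signal under the authors' limit was not measured.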
